A study of Caenorhabditis elegans with 58 samples.

Results

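The lysozyme and saposin-like genes of Caenorhabditis elegans were followed across 15 groups of whole L4 larvae. The genes were taken by name, as every entry of the count tables called lys, ilys or spp with a number. Of 45410 entries 37 fitted, of which 10 were lys genes, 4 were ilys genes and 23 were spp genes. Progeny of mothers of different age, temperature or mating gave 36 libraries in 9 groups of 4, and lines derived from an outcross gave 22 libraries in 6 groups. Animals were kept at 20°C unless stated otherwise. WT F1-4DOA and set-2 F1-4DOA are the progeny of 4-day-old mothers that were wild type or carried set-2(zr1208), a point mutation in the catalytic domain of an H3K4 methyltransferase of the COMPASS complex, and WT F1-1DOA and set-2 F1-1DOA are the progeny of 1-day-old mothers of the same genotypes. WT F1-25C and set-2 F1-25C were held at 25°C for 1 generation, and WT F1-back was returned to 20°C after 25°C, where the sources used here do not agree on how many generations the exposure lasted. In 1DOA x 4DOA and 1DOA x 1DOA young males were mated to old or young hermaphrodites of wild-type genotype, and the cross progeny were picked by the transgene oyIs14, which they therefore carry. Their sex is not stated. MUT-des and WT-des are homozygous mutant and homozygous wild-type lines that came from WT males mated to set-2 hermaphrodites, and WT-ctrl lines came from WT males mated to WT hermaphrodites. They were sampled at F3 and at F5, with 3 MUT-des, 4 WT-des and 4 WT-ctrl libraries at each generation.

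Lysozymes cut the peptidoglycan of bacterial cell walls. Worms have a family related to the lysozymes of amoebae, the lys genes, and a smaller family of invertebrate-type lysozymes, the ilys genes. Saposin-like proteins bind and disturb lipid membranes, and several of the spp products, among them SPP-1 and SPP-5, permeabilise bacterial membranes in the manner of amoebapores. In worms these proteins are made mostly in the intestine, where they serve both to digest the bacterial diet and to limit infection, and lys-7, lys-8 and spp-1 are known targets of the pathways that control immunity and lifespan.

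Total counts ran between 2819460 and 31543107 per library in the 36 libraries and between 14071245 and 25733464 in 21 of the outcross libraries. The other outcross library, WT-ctrl F5 replicate 2, held 1271186 counts and was left out of the fits and group means. The genes of these 3 families took between 0.337% and 0.708% of the counts in the 57 libraries used. The mutated set-2 position cannot be read from counts per gene. Of 11 intestine markers found, 9 were tested in the 36 libraries, and the summed level of all 11 lay between 1510.2 and 3736 CPM there (read counts relative to the size of the library), with elt-7 and gut-2 at 0 in every library. Within the 36 libraries one set stood apart without any label for it. In 7 wild-type libraries (WT F1-1DOA replicates 1 and 2, WT F1-4DOA replicates 1, 2 and 3 and WT F1-25C replicates 1 and 2) cup-4, an ion channel gene of coelomocytes, the scavenger cells of the body cavity, was at 3.41 to 6.69 CPM and the coelomocyte gene lgc-26 at 2.24 to 5.34 CPM, against 22.8 to 39.0 CPM and 9.83 to 17.7 CPM in the other 29. A further coelomocyte marker, unc-122, overlapped between these sets, reaching 2.99 CPM in the 7 libraries and going down to 2.79 CPM in the 29. The 22 outcross libraries held 1.84 to 10.2 CPM of cup-4 and 2.23 to 7.82 CPM of lgc-26, nearer to the 7 than to the 29. Results of the members that changed with this split are given with and without it, and its part in them was not tested further. Genes of the other lists, such as intestine markers, were not examined under the split. In such whole-animal libraries, fewer cells of a type and less RNA per cell cannot be told apart.

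Levels differed widely between members of the 3 families. Per kilobase of exon, the abundant members in the 36 libraries were spp-5 with 2100.1 CPM, spp-14 with 1873 CPM, spp-17 with 1458 CPM, lys-4 with 1128 CPM, spp-3 with 857 CPM and lys-1 with 744 CPM. Below them came lys-8 with 396 CPM per kilobase, lys-2 with 238 and lys-7 with 117. The invertebrate-type lysozymes read under their own names were scarce, with ilys-2 at 2.48 CPM per kilobase and ilys-3 at 1.08. Genes that lie next to each other could differ widely. In the RefSeq annotation, lys-4, lys-5 and lys-6 follow each other on chromosome IV with no coding gene between them, yet lys-4 stood at 1128 CPM per kilobase while lys-5 had 6.97 and lys-6 7.7. On chromosome V lys-1, lys-2 and lys-3 are likewise adjacent, with 744, 238 and 4.32 CPM per kilobase. Adjacent on chromosome X are spp-3, spp-2, spp-6, spp-4 and spp-5, and on chromosome I spp-17 and spp-23, with 1458 and 112 CPM per kilobase. The library kit did not keep strand and these families hold close relatives, so reads may be shared between near-identical or overlapping genes.

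**Figure D1:**
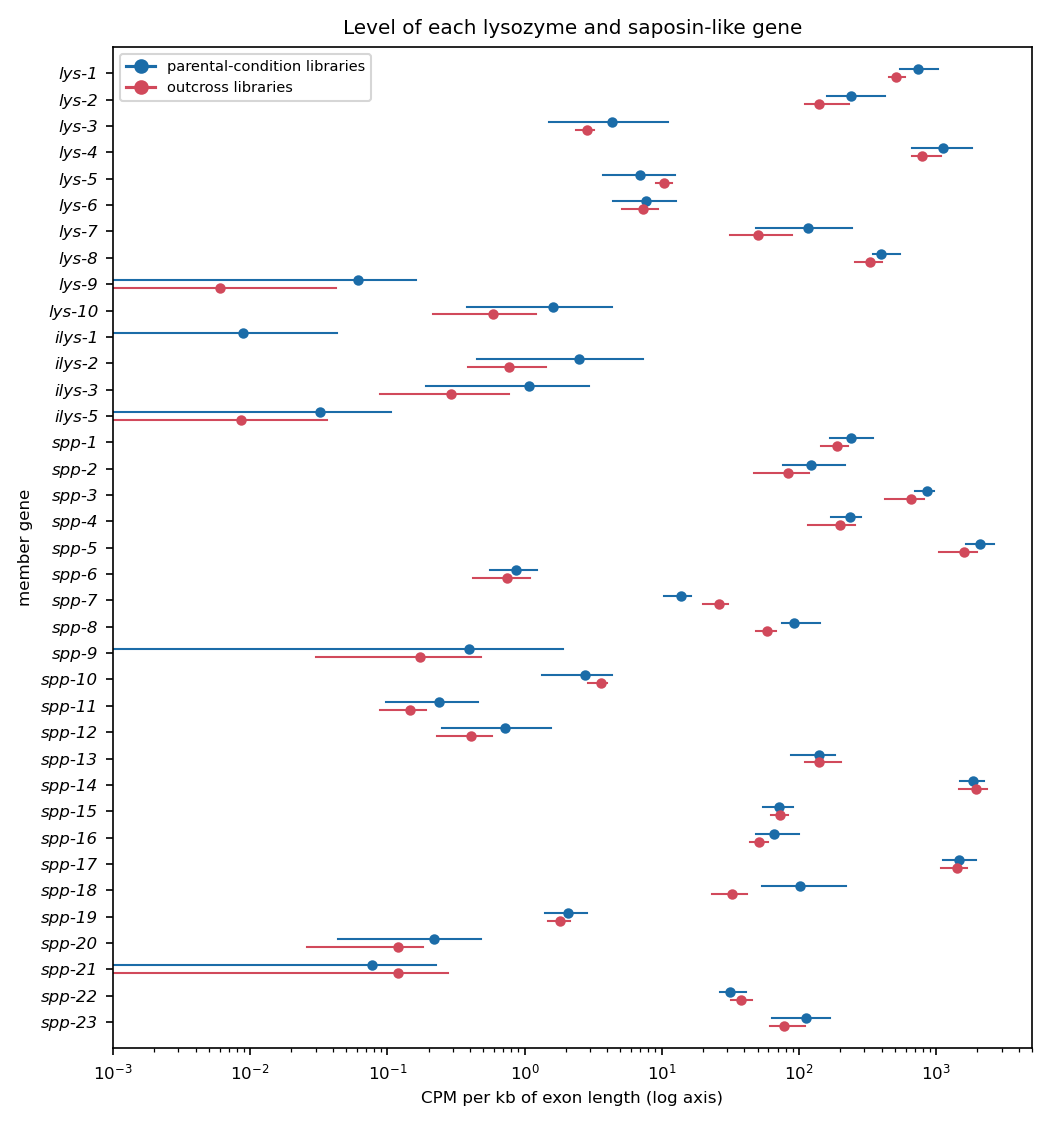
Mean level of each lysozyme and saposin-like gene per kilobase of exon, in CPM on a log axis. Points are means over the 36 parental-condition libraries (blue) and the outcross libraries (red), and lines span the lowest to the highest group mean. The level of spp-5 is 2100.1 CPM per kilobase in the 36 libraries and that of lys-5 is 6.97, and ilys-1, with no read in the outcross libraries, has no red point.

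Of the 37 genes 28 passed the filter on low counts in the 36 libraries and 27 in the outcross libraries, where ilys-3 did not. The 9 genes that passed in neither were ilys-1, ilys-5, lys-9, spp-6, spp-9, spp-11, spp-12, spp-20 and spp-21. In these 9 no library of the 36 reached more than 17 counts. The reads of ilys-5 stood in an entry named by a transcript, which the name rule did not take. That transcript entry of ilys-5 held 658, 722, 571 and 667 CPM in WT F1-25C and 1184, 1324, 973 and 1058 CPM in WT F1-1DOA (log2 fold change -0.79, standard error 0.15, edgeR adjusted p = 0.000945). It is thus the most abundant invertebrate-type lysozyme entry measured, and its groups did not overlap although the change was under the fold threshold. The ilys-5 transcript entry was also below WT F1-1DOA without overlap in 1DOA x 1DOA (571 to 862 CPM). In WT F1-back (848 to 1032 CPM) it was above WT F1-25C without overlap. In set-2 F1-25C (757 to 1223 CPM) and set-2 F1-1DOA (1191 to 1853 CPM) it overlapped. A second entry of spp-10, the gene of a prosaposin-like protein, is also named by a transcript and is not counted among the 37. This spp-10 transcript entry held more reads than the entry under the gene's own name. In WT F1-1DOA it had 63.9, 68.1, 48.3 and 50.2 CPM, where the entry spp-10 averaged 4.60 CPM.

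A gene was called where its Benjamini-Hochberg adjusted p, taken over all genes tested, was under 0.05 and its log2 fold change was beyond 1 in either direction. Every p is from edgeR's quasi-likelihood test unless another tool is named. It sets a change against the spread between libraries of the same group, estimated over all groups of a fit. The labels state biological replicates. By the paper's methods the sequenced descendants came from the same cross, so their lines do not replicate the cross. WT F1-1DOA serves in 5 of the comparisons (WT F1-4DOA, WT F1-25C, WT F1-back, set-2 F1-1DOA and 1DOA x 1DOA), and set-2 F1-1DOA, WT F1-25C and 1DOA x 1DOA likewise serve in more than 1. Comparisons that share libraries are not independent and are given side by side only. How many of all genes did not overlap between groups was not counted, so statements on overlap only describe the values of a gene. Counts of members called in alternative fits stand without the share of all genes called in the same fit. They do not tell a change in the members from a change in the whole fit.

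**Figure D2:**
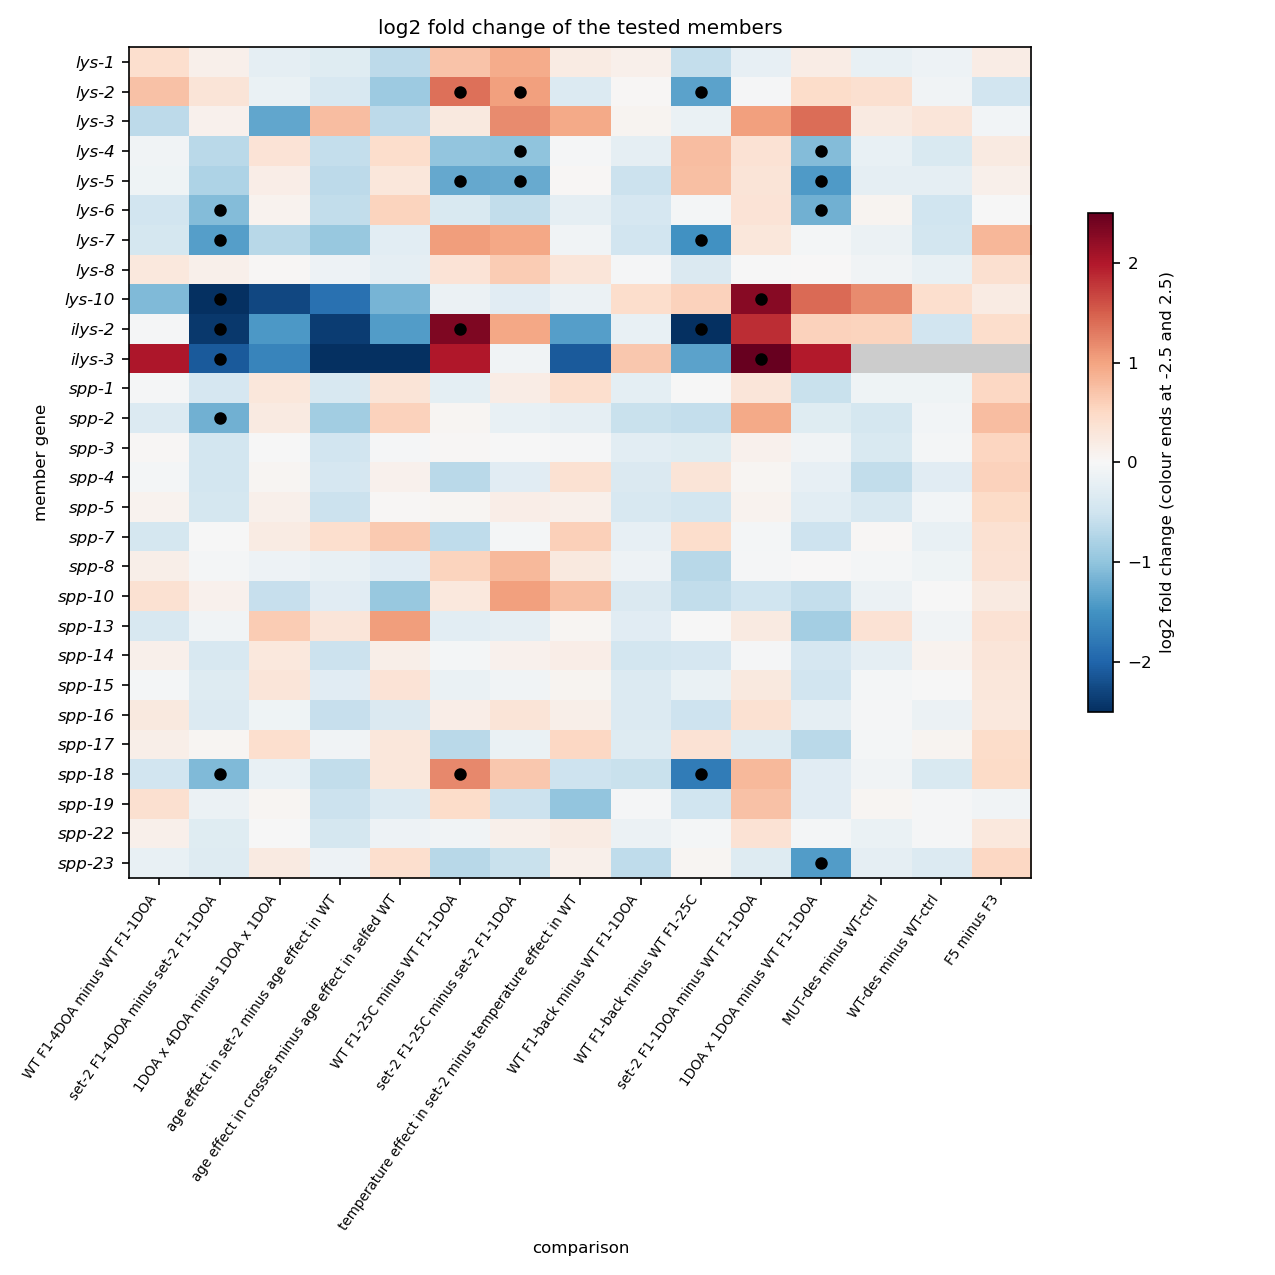
Log2 fold changes of the genes tested (rows) in each comparison (columns), on a colour scale centred on 0, with called genes marked by a dot and grey where a gene was not tested. The column of maternal age in set-2 holds 7 marks and that of 25°C in wild type 4, while the columns of maternal age in wild type and of the outcross lines hold none.

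Growth at 25°C changed the lysozymes in both directions. In wild type lys-2, ilys-2 and the saposin-like gene spp-18 rose, and lys-5 fell. These were 4 of 28 genes called, against 4.99% of all genes, and the median log2 fold change of the 28 was 0.03 beside -0.00 over all genes. A further 6 had an adjusted p under 0.05 at a smaller fold, so that 10 of 28 passed on p alone, against 8.25% of all genes.

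The lysozyme gene lys-2 held 408, 424, 422 and 333 CPM in WT F1-25C and 159.99, 206, 126 and 117 CPM in WT F1-1DOA. Every library at 25°C was above every library at 20°C (log2 fold change 1.38, standard error 0.23, edgeR adjusted p = 0.000142). Its neighbour lys-1 had 1074, 943, 1016 and 951 CPM in WT F1-25C and 649.8, 770.4, 476 and 521 CPM in WT F1-1DOA. The groups did not overlap here either, at a smaller fold (log2 fold change 0.72, standard error 0.14, edgeR adjusted p = 0.000895). For spp-18 the values were 90.7, 82.3, 76.4 and 87.9 CPM in WT F1-25C against 31.8, 39.2, 38.1 and 38.2 CPM in WT F1-1DOA (log2 fold change 1.19, standard error 0.23, edgeR adjusted p = 0.000917), with all 4 libraries at 25°C above those at 20°C. The scarce ilys-2 had 54, 34, 19 and 18 counts in WT F1-25C and 6, 4, 6 and 10 counts in WT F1-1DOA, or 3.44, 4.75, 1.4 and 1.17 CPM against 0.586, 0.491, 0.566 and 0.433 CPM. The groups did not overlap (log2 fold change 2.33, standard error 0.69, edgeR adjusted p = 0.0308), but the call was lost when any 1 of 6 libraries was left out (WT F1-1DOA replicates 1 to 4 or WT F1-25C replicates 1 and 2), at log2 fold changes between 1.92 and 2.34, with adjusted p between 0.0583 and 0.116.

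Of the cluster on chromosome IV, lys-5 fell and lys-4 was lower. lys-5 had 2.93, 2.1, 2.59 and 3.64 CPM in WT F1-25C against 6.06, 8.95, 7.08 and 5.89 CPM in WT F1-1DOA (log2 fold change -1.28, standard error 0.30, edgeR adjusted p = 0.00534). The abundant lys-4 had 591, 516, 525 and 644 CPM in WT F1-25C and 1158, 1207, 1090.04 and 1050.3 CPM in WT F1-1DOA, and missed the fold threshold narrowly (log2 fold change -0.99, standard error 0.18, edgeR adjusted p = 0.000538). In both genes every library at 25°C was below every library at 20°C. Without any 1 of WT F1-1DOA replicates 1, 3 and 4 or WT F1-25C replicates 1 and 4, lys-4 passed the threshold, at a log2 fold change between -1.11 and -1.02. It passed in 7 of the 16 alternative fits. Over all 16 the log2 fold change of lys-4 ran from -1.11 to -0.89, with adjusted p (edgeR or DESeq2) up to 0.173. The third gene of the cluster, lys-6, was at 5.51 ± 0.611 CPM in WT F1-25C and 7.23 ± 1.52 CPM in WT F1-1DOA (SD, n = 4 each), a log2 fold change of -0.38 that did not pass (edgeR adjusted p = 0.433). Among the saposin-like genes spp-17, spp-4 and spp-7 were lower with an adjusted p under 0.05 and log2 fold changes of -0.68, -0.67 and -0.64, and spp-8 was higher at 0.56.

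The wild-type temperature result changed with the split in coelomocyte markers, which leaves 2 libraries of each group on either side. With only the libraries of low marker level 7 of the members were called, lys-2, lys-7, ilys-2 and spp-18 higher and lys-4, lys-5 and spp-7 lower. With only those of high level 1 was called, lys-2 (log2 fold change 1.62, edgeR adjusted p = 0.00387). There spp-18 stood at 1.09 with an adjusted p of 0.16, lys-5 at -1.06 with 0.444 and ilys-2 at 1.37 with 0.832. For spp-7 the log2 fold change was -1.24 in the libraries of low level (adjusted p = 0.00999) and -0.08 in those of high level (0.982), and spp-17, spp-4 and spp-8, at -0.39, -0.50 and 0.49, did not pass on p in those of high level either (adjusted p = 0.872, 0.697 and 0.563). With the split as a term of the model the count stayed at 4. The share of all genes called in each of these fits is not given here, so the 7 and the 1 are not compared. A gene that divided along the split in both groups was lys-7, a lysozyme gene under the control of the insulin pathway factor DAF-16, with 263, 288, 114 and 107 CPM in WT F1-25C and 108, 121.9, 68.4 and 74.1 CPM in WT F1-1DOA. Its first pair of libraries at 25°C, those of low marker level, stood far above the other pair, and the pooled change was not called (log2 fold change 1.05, standard error 0.38, edgeR adjusted p = 0.0819). In WT F1-4DOA, where all but replicate 4 are of low marker level, lys-7 ran from 46.7 to 110.7 CPM with a median of 59.1.

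In set-2 mutants 25°C moved lys-2, lys-4 and lys-5 the same way as in wild type. The 3 genes called of 28 compare with 2.97% of all genes, and the median of the members was 0.06 beside -0.04 over all genes. lys-2 had 264, 208, 306 and 451 CPM in set-2 F1-25C against 150.3, 141, 181 and 128 CPM in set-2 F1-1DOA (log2 fold change 1.03, standard error 0.22, edgeR adjusted p = 0.0041). For lys-4 the values were 515, 725, 656 and 978 CPM in set-2 F1-25C and 1415, 1429.7, 1573 and 1369.8 CPM in set-2 F1-1DOA (log2 fold change -1.01, standard error 0.18, edgeR adjusted p = 0.000587). lys-5 was at 2.78, 4.19, 3.14 and 4.51 CPM in set-2 F1-25C and at 9.27, 6.63, 10 and 8.96 CPM in set-2 F1-1DOA (log2 fold change -1.26, standard error 0.29, edgeR adjusted p = 0.00656). In none of these genes did the groups overlap. With an adjusted p under 0.05 but under the fold threshold were lys-1 (0.93), spp-8 (0.80) and lys-8 (0.64), all higher at 25°C, so that 6 of 28 passed on p alone, against 8.03% of all genes.

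Some calls in the mutant were lost or gained with the libraries fitted. In set-2 F1-25C replicate 4 was the highest library for lys-2, lys-7, spp-2 and spp-18, and without it lys-2 was at a log2 fold change of 0.78, under the threshold, as it was without set-2 F1-1DOA replicate 4 (0.98). Likewise lys-4 stood at -0.88, -0.92 and -0.94 without set-2 F1-25C replicate 1, set-2 F1-25C replicate 3 or set-2 F1-1DOA replicate 3. Without set-2 F1-1DOA replicate 2, ilys-2, lys-7 and the entry of spp-10 under its own name were called as well. Without set-2 F1-25C replicate 2, lys-1 and lys-3 were called as well. When the 8 libraries compared were fitted alone no member was called, with lys-2 at 1.05, lys-4 at -0.997 and lys-5 at -1.24 (adjusted p = 0.098, 0.0803 and 0.0514).

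The temperature effect itself was compared between the genotypes as an interaction. No member was called (edgeR, 2 of 28 with an unadjusted p under 0.05, and 0 called by DESeq2), against 2.68% of all genes. The difference of the 2 effects, set-2 minus wild type, was -0.35 for lys-2 (standard error 0.31), -0.02 for lys-4 (0.25), 0.02 for lys-5 (0.40) and -0.52 for spp-18 (0.32), on the log2 scale. For lys-4 and lys-5 these differences were smaller than their errors.

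Against WT F1-25C 4 of 28 members fell in WT F1-back, namely spp-18, lys-2, lys-7 and ilys-2, of which lys-7 had not been called at 25°C, beside 8.23% of all genes called and 6.05% called lower. The 4 WT F1-25C libraries are those of the temperature comparison, so the 2 results are not independent. spp-18 had 20.8, 18.3, 29.4 and 31.6 CPM in WT F1-back and 90.7, 82.3, 76.4 and 87.9 CPM in WT F1-25C (log2 fold change -1.75, standard error 0.23, edgeR adjusted p = 4.05e-06). lys-2 had 155, 136, 180.02 and 153 CPM in WT F1-back and 408, 424, 422 and 333 CPM in WT F1-25C (log2 fold change -1.34, standard error 0.22, edgeR adjusted p = 0.000108). In both genes all returned libraries were below all libraries at 25°C. The calls of lys-7, with 57.9, 50.8, 76.2 and 83.7 CPM in WT F1-back against 263, 288, 114 and 107 CPM in WT F1-25C (log2 fold change -1.52, standard error 0.38, edgeR adjusted p = 0.00585), and of ilys-2, with 6, 9, 4 and 3 counts in WT F1-back against 54, 34, 19 and 18 in WT F1-25C (log2 fold change -2.51, standard error 0.70, edgeR adjusted p = 0.012), were lost with the coelomocyte split as a term, at log2 fold changes of -0.93 and -2.10 and adjusted p of 0.0596 and 0.0557. The call of ilys-2 was also lost without WT F1-25C replicate 2 (log2 fold change -2.08, adjusted p = 0.0515). lys-4, which had been lower at 25°C, was at 982, 831, 985 and 1074 CPM in WT F1-back, above all 4 libraries at 25°C, under the fold threshold (log2 fold change 0.77, standard error 0.18, edgeR adjusted p = 0.00297). The median over the members was -0.33, beside -0.03 over all genes.

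Against WT F1-1DOA no member of WT F1-back was called by edgeR, with 5 of 28 at an unadjusted p under 0.05 and 0 called by DESeq2, beside 0.549% of all genes. All 17 saposin-like genes tested were below 0, with a median of -0.33. Of 9 lys genes 4 were above 0, with a median of -0.02. Over all genes 47.7% were above 0 and the median was -0.02. The members were measured in the same libraries, so their signs are not independent and were not tested as a set. The abundant spp-5 had 582, 516, 642 and 704 CPM in WT F1-back and 743, 865, 791 and 835 CPM in WT F1-1DOA, and spp-14 had 507, 463, 554 and 589 CPM in WT F1-back and 724, 804, 670.4 and 722 CPM in WT F1-1DOA. Their log2 fold changes were -0.40 and -0.47, and neither passed (edgeR adjusted p = 0.423 and 0.307). All 4 WT F1-back libraries are of the high coelomocyte marker level, as are 2 of the 4 WT F1-1DOA libraries.

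**Figure D3:**
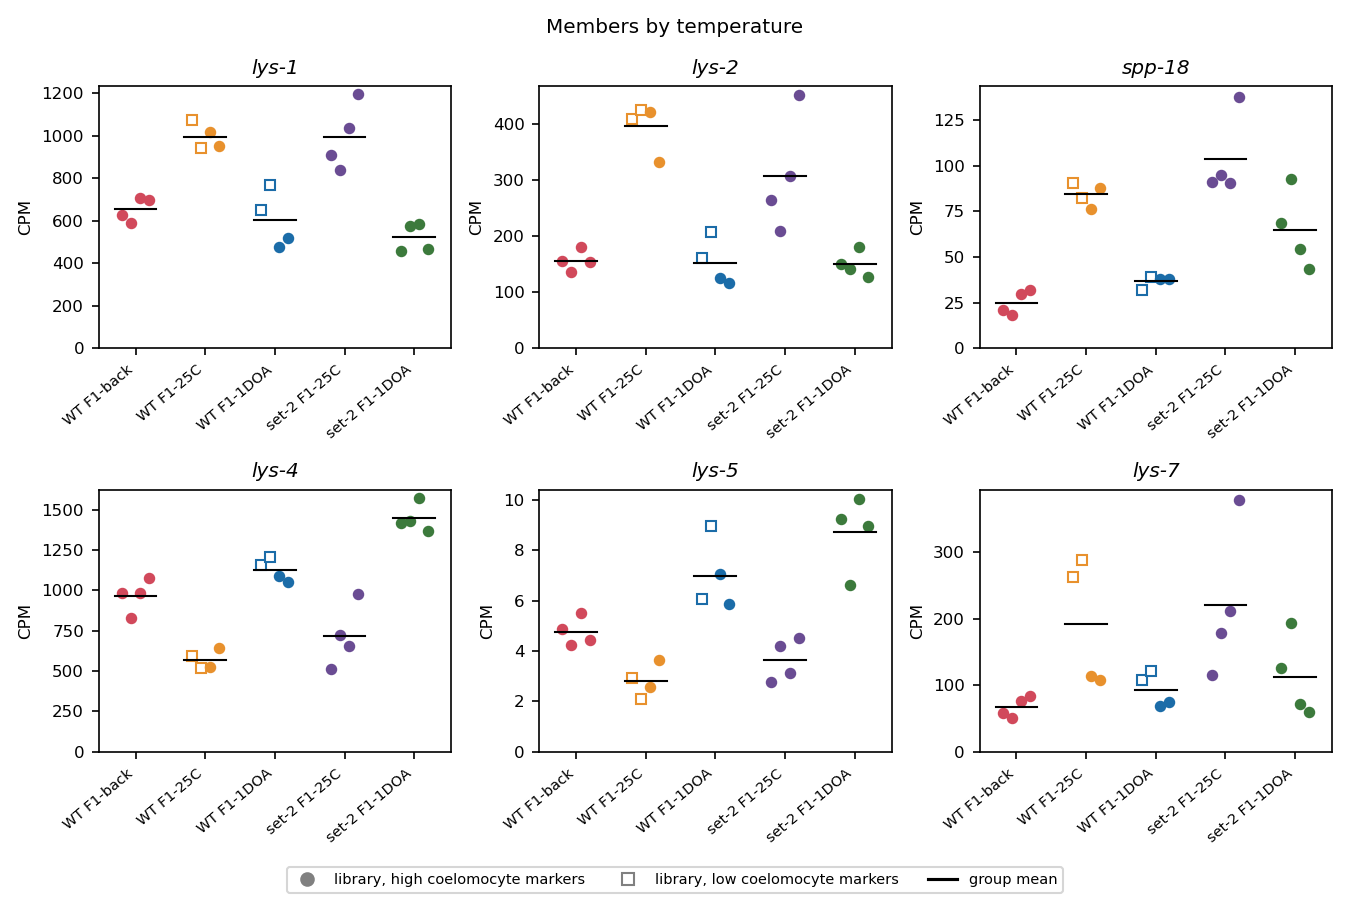
CPM per library of lys-1, lys-2, spp-18, lys-4, lys-5 and lys-7, on linear axes starting at 0, for WT F1-back, WT F1-25C, WT F1-1DOA, set-2 F1-25C and set-2 F1-1DOA. Each point is a library (open squares, low coelomocyte markers) and each line a group mean. lys-2 and spp-18 are high in both 25°C groups and low in WT F1-back, lys-4 and lys-5 run the other way, and lys-7 splits into 2 high and 2 low libraries in WT F1-25C.

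Other immune effector genes (C-type lectins, antibacterial factors, caenacins and the like) were followed beside the families. Of 25 tested, 9 rose and none fell in WT F1-25C (median log2 fold change 0.67), and the 3 with the lowest adjusted p were T24B8.5, a p38 pathway target (log2 fold change 4.16, standard error 0.27, edgeR adjusted p = 7.69e-13), F35E12.5 (log2 fold change 2.77, standard error 0.30, edgeR adjusted p = 1.69e-07) and dod-19 (log2 fold change 1.22, standard error 0.16, edgeR adjusted p = 7.19e-06). By fold, fipr-1 (4.06), clec-67 (2.10), clec-4 (2.05), abf-5 (2.00) and clec-85 (1.45) were also above dod-19. In set-2 F1-25C 7 of the 25 rose and 2 fell, and in WT F1-back against WT F1-25C 12 fell (median -0.92). No intestine marker was called in WT F1-25C or set-2 F1-25C, while 1 of 9, ifc-2, an intestinal intermediate filament gene, was higher in WT F1-back than in WT F1-25C (log2 fold change 4.89, standard error 0.76, edgeR adjusted p = 4.29e-05) and than in WT F1-1DOA (log2 fold change 3.81, standard error 0.67, edgeR adjusted p = 0.00118). Of 7 yolk protein and other adult-onset genes 3 rose in WT F1-25C (summed 5646 to 14663 CPM, against 1913 to 6977 CPM in WT F1-1DOA), while 2 fell in set-2 F1-25C. In WT F1-back against WT F1-25C 3 of the 7 fell, vit-1, rme-2 and col-19, and none was above 0 (median -1.26, summed 1905 to 9099 CPM in WT F1-back). The part of these genes in the members' values was not tested.

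With maternal age no lysozyme or saposin-like gene was called in selfed wild type. In WT F1-4DOA 0 of 28 were called by edgeR, with 4 at an unadjusted p under 0.05 and 0 called by DESeq2, beside 2.44% of all genes. The median was -0.03, beside -0.01 over all genes, and 13 of 28 were positive, where 48.0% of all genes were. lys-2 had 241, 218, 372 and 182 CPM in WT F1-4DOA against 159.99, 206, 126 and 117 CPM in WT F1-1DOA, where the groups overlapped (log2 fold change 0.74, standard error 0.22, edgeR adjusted p = 0.0587). For spp-18 it was 39.2, 19.5, 24.5 and 22.2 CPM in WT F1-4DOA against 31.8, 39.2, 38.1 and 38.2 CPM in WT F1-1DOA (log2 fold change -0.48, standard error 0.23, edgeR adjusted p = 0.337), with replicate 1 of WT F1-4DOA level with the young-mother libraries. Over the same libraries 6 of 7 adult-onset genes rose, with a summed level of 17619 to 28689 CPM in WT F1-4DOA against 1913 to 6977 CPM in WT F1-1DOA.

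In set-2 mutants 7 of 28 members fell in the progeny of old mothers and none rose, where 5.98% of all genes were called and 4.37% called lower. The genes were spp-18, lys-10, lys-6, spp-2, lys-7, ilys-2 and ilys-3, and lys-4 and lys-5 passed on p alone. The median log2 fold change over all 28 was -0.37, beside 0.05 over all genes, with 6 of 28 above 0 where 53.4% of all genes were.

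spp-18 had 27.3, 29.6, 41 and 25.2 CPM in set-2 F1-4DOA and 68.6, 92.8, 54.4 and 43.6 CPM in set-2 F1-1DOA (log2 fold change -1.10, standard error 0.23, edgeR adjusted p = 0.00135). The lowest young-mother library was just above the highest old-mother library. lys-6 had 5.02, 4.18, 5.21 and 3.11 CPM in set-2 F1-4DOA and 12.1, 7.14, 8.21 and 8.87 CPM in set-2 F1-1DOA (log2 fold change -1.09, standard error 0.25, edgeR adjusted p = 0.00309). Of the neighbours, lys-4 was at 838, 969.7, 1194 and 618 CPM in set-2 F1-4DOA and 1415, 1429.7, 1573 and 1369.8 CPM in set-2 F1-1DOA (log2 fold change -0.68, standard error 0.18, edgeR adjusted p = 0.00788), again without overlap and under the fold threshold. lys-5 had 4.58, 8.12, 4.17 and 3.17 CPM in set-2 F1-4DOA against 9.27, 6.63, 10 and 8.96 CPM in set-2 F1-1DOA, where the groups overlapped through 1 library, set-2 F1-4DOA replicate 2 (log2 fold change -0.77, standard error 0.28, edgeR adjusted p = 0.0489), and without it the log2 fold change was -1.18 (edgeR adjusted p = 0.0048).

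The saposin-like gene spp-2 was at 47, 43.5, 50.4 and 45.6 CPM in set-2 F1-4DOA and at 202, 92.6, 85 and 50.5 CPM in set-2 F1-1DOA (log2 fold change -1.21, standard error 0.33, edgeR adjusted p = 0.0107). The old-mother libraries lay within a narrow band and the young-mother libraries were widely spread above it, the lowest of them at nearly the same level. lys-7 was at 49.5, 30.5, 43.8 and 51.3 CPM in set-2 F1-4DOA and at 126, 194, 72.2 and 60.3 CPM in set-2 F1-1DOA (log2 fold change -1.37, standard error 0.38, edgeR adjusted p = 0.0121), with a similar spread in the young-mother group. The groups did not overlap in either gene.

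Among the genes that fell were 3 of low level. lys-10 had 4, 10, 0 and 17 counts in set-2 F1-4DOA and 39, 93, 8 and 32 counts in set-2 F1-1DOA, or 0.223, 0.391, 0 and 0.539 CPM against 2.87, 6.85, 0.853 and 1.39 CPM (log2 fold change -2.97, standard error 0.64, edgeR adjusted p = 0.00165). On the CPM scale the groups did not overlap. ilys-2 had 7, 12, 2 and 4 counts in set-2 F1-4DOA against 21, 71, 1 and 11 in set-2 F1-1DOA (log2 fold change -2.41, standard error 0.72, edgeR adjusted p = 0.0174), and here the groups did overlap, as 1 young-mother library held a single count while another held 71. ilys-3, an invertebrate-type lysozyme used in digesting bacteria, had 7, 10, 0 and 9 counts in set-2 F1-4DOA and 32, 30, 7 and 11 in set-2 F1-1DOA (log2 fold change -2.09, standard error 0.70, edgeR adjusted p = 0.0307), which is 0.391, 0.391, 0 and 0.286 CPM against 2.35, 2.21, 0.746 and 0.476 CPM without overlap.

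Of these 7 calls, that of lys-10 was kept in each alternative fit run, and the others were lost without at least 1 library. Without set-2 F1-1DOA replicate 2, spp-18 (log2 fold change -0.88), lys-7 (-0.98, edgeR adjusted p = 0.0994), ilys-2 (-1.08, 0.303) and ilys-3 (-1.80, 0.114) were lost. Without set-2 F1-1DOA replicate 1, spp-2 (-0.77, adjusted p = 0.0567), lys-6 (-0.98) and ilys-3 (-1.81, 0.064) were lost. Without set-2 F1-4DOA replicate 4, lys-6, ilys-2 and ilys-3 were lost, at -0.97, -2.02 and -2.03. With the 8 libraries compared fitted alone, lys-10, lys-6 and spp-18 were called, and lys-7 and spp-2 were at -1.43 and -1.25 (adjusted p = 0.0501 and 0.0634). ilys-3 was also lost without set-2 F1-4DOA replicate 1 (-2.19, adjusted p = 0.0645). Beside these genes 16 of 17 sperm markers fell in set-2 F1-4DOA (median -1.51, summed 641 to 1415 CPM against 1881 to 4168 CPM in set-2 F1-1DOA), while 0 of 9 intestine markers and 2 of 25 other immune effectors were called, both effectors higher, and the part of these in the result was not tested.

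Whether the maternal age effect differed between set-2 and wild type was tested as an interaction, in which no member was called by edgeR, with 5 of 28 at an unadjusted p under 0.05 and 1, ilys-3, called by DESeq2, beside 1.22% of all genes. Of the differences, set-2 minus wild type, 25 of 28 were below 0, with a median of -0.46. Over all genes 49.5% were above 0, with a median of -0.01. The members share the same libraries, so these signs are not independent. For spp-18 the difference was -0.61 (standard error 0.32), for lys-7 -0.94 (0.53) and for spp-2 -0.86 (0.46), none past the threshold (edgeR adjusted p = 0.267, 0.302 and 0.276). ilys-3 had the lowest value, -4.12 (1.25, edgeR adjusted p = 0.0773), and was called with the coelomocyte split as a term (-3.96, adjusted p = 0.0458). In the libraries of high marker level alone the difference was -6.59, where WT F1-4DOA keeps only replicate 4. Without set-2 F1-1DOA replicate 4, set-2 F1-4DOA replicate 2 or WT F1-4DOA replicate 1, ilys-3 was called as well.

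In cross progeny, 1DOA x 4DOA and 1DOA x 1DOA differed in 0 of 28 members by edgeR, with 3 at an unadjusted p under 0.05 and 0 called by DESeq2, where 0.0653% of all genes were called. The median was 0.04, beside 0.00 over all genes. lys-4 had 698, 758, 587 and 648 CPM in 1DOA x 4DOA and 345, 601, 503 and 663 CPM in 1DOA x 1DOA, where the groups overlapped (log2 fold change 0.35, standard error 0.18, edgeR adjusted p = 0.723). The age effect in crosses minus that in selfed wild type was called for 0 members by edgeR, 5 with an unadjusted p under 0.05 and 0 called by DESeq2, beside 0.581% of all genes, and for 1 member, spp-13, without WT F1-4DOA replicate 1.

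**Figure D4:**
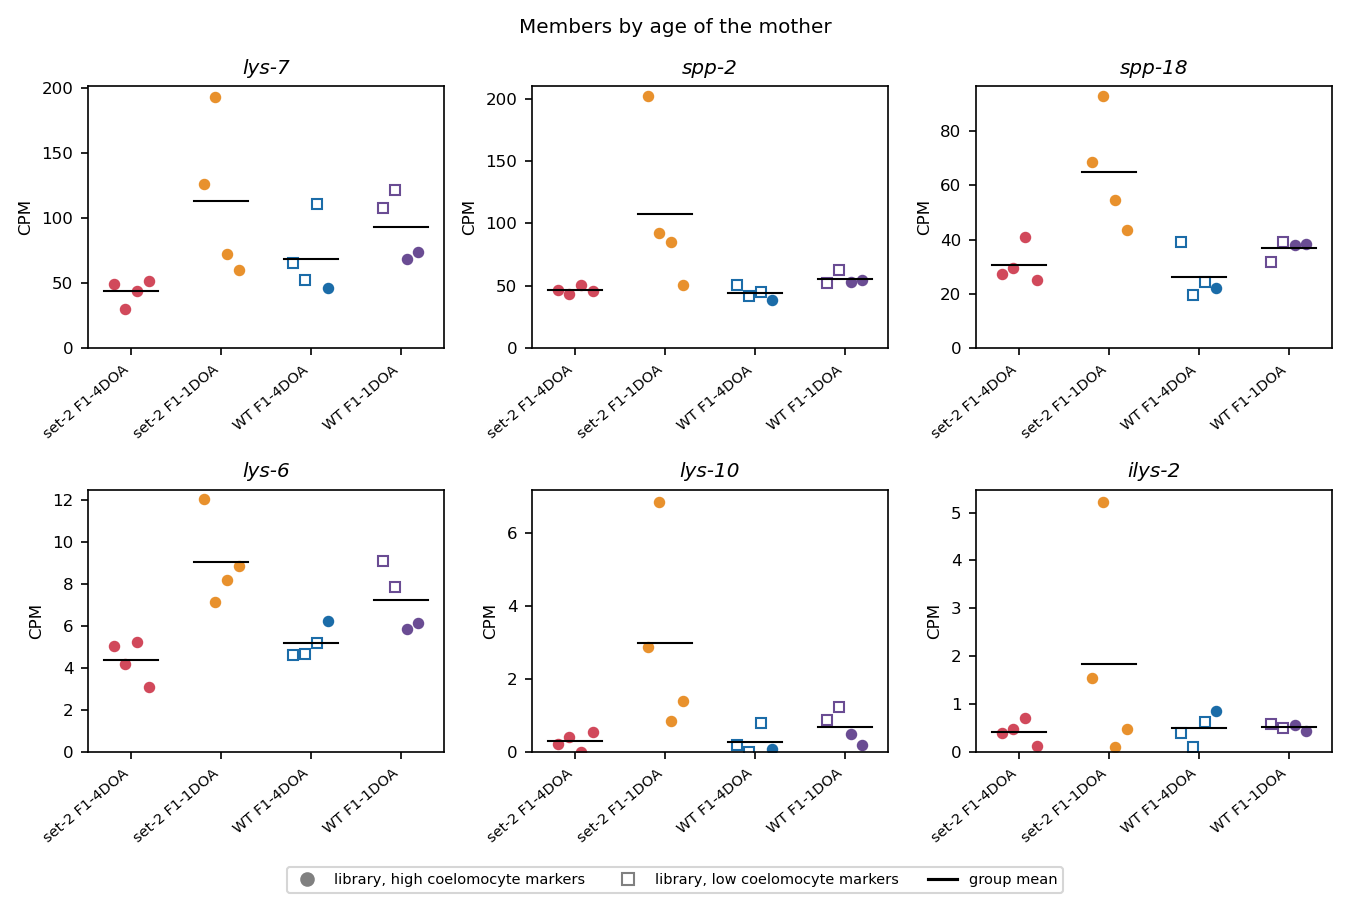
CPM per library of lys-7, spp-2, spp-18, lys-6, lys-10 and ilys-2, on linear axes starting at 0, for the progeny of old and young mothers in set-2 and in wild type, each old-mother group left of its young-mother group. Points are libraries (open squares, low coelomocyte markers) and lines are group means. The young-mother set-2 libraries of lys-7 and spp-2 are widely spread above a tight old-mother group, while in wild type the groups of lys-7 and spp-18 overlap.

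Without any treatment set-2 F1-1DOA and WT F1-1DOA differed in 2 scarce lysozymes. Both ilys-3 and lys-10 rose, 2 of 28 members beside 2.72% of all genes. The median of the members was 0.26, beside 0.01 over all genes, with 19 of 28 above 0, where 50.8% of all genes were. ilys-3 had 32, 30, 7 and 11 counts in set-2 F1-1DOA and 3, 1, 0 and 1 counts in WT F1-1DOA, or 2.35, 2.21, 0.746 and 0.476 CPM against 0.293, 0.123, 0 and 0.0433 CPM (log2 fold change 3.73, standard error 0.89, edgeR adjusted p = 0.0108). Each mutant library was above each wild-type library, although the wild-type counts are too few to fix the size of the change. lys-10 had 39, 93, 8 and 32 counts in set-2 F1-1DOA and 9, 10, 5 and 4 in WT F1-1DOA, with overlap on the CPM scale (log2 fold change 2.28, standard error 0.63, edgeR adjusted p = 0.0211). It was not called without set-2 F1-1DOA replicate 2 (1.49, edgeR adjusted p = 0.121), WT F1-1DOA replicate 1 (2.497, adjusted p = 0.0606) or WT F1-1DOA replicate 4 (1.85, adjusted p = 0.0598). Neither gene was called in the libraries of high coelomocyte marker level alone, where 2 WT F1-1DOA libraries remain, although the log2 fold changes were larger there, 5.23 for ilys-3 and 3.33 for lys-10 (adjusted p = 0.0781 and 0.0641). In the same comparison 1 of 9 intestine markers was called, ifc-2, higher in set-2 F1-1DOA (log2 fold change 2.51, standard error 0.72, edgeR adjusted p = 0.0255). The set-2 F1-1DOA libraries are also those against which ilys-3 and lys-10 fell in set-2 F1-4DOA, so the 2 results are not independent. When the 8 libraries were fitted alone no member was called, with lys-10 at 2.31 (adjusted p = 0.128). Without set-2 F1-1DOA replicate 4, ilys-2 and spp-2 were called as well. Among the abundant members spp-5 was at 863 ± 266 CPM in set-2 F1-1DOA and 808 ± 53.6 CPM in WT F1-1DOA (SD, n = 4 each, log2 fold change 0.09, standard error 0.20, edgeR adjusted p = 0.77), and only spp-18 (log2 fold change 0.82, standard error 0.23, edgeR adjusted p = 0.0223) passed on p below the fold threshold.

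Cross progeny of young parents had lower levels of the chromosome IV lysozyme cluster than self progeny of young mothers. In 1DOA x 1DOA against WT F1-1DOA lys-4, lys-5, lys-6 and spp-23 fell and no member rose, 4 of 28 beside 2.33% of all genes called and 0.921% called lower. lys-4 had 345, 601, 503 and 663 CPM in 1DOA x 1DOA and 1158, 1207, 1090.04 and 1050.3 CPM in WT F1-1DOA (log2 fold change -1.09, standard error 0.18, edgeR adjusted p = 0.000445). lys-5 had 0.713, 2.45, 2.96 and 4.33 CPM in 1DOA x 1DOA and 6.06, 8.95, 7.08 and 5.89 CPM in WT F1-1DOA (log2 fold change -1.42, standard error 0.30, edgeR adjusted p = 0.00598). For lys-6 the values were 1.03, 4.84, 3.81 and 2.83 CPM in 1DOA x 1DOA and 9.09, 7.85, 5.85 and 6.15 CPM in WT F1-1DOA (log2 fold change -1.20, standard error 0.26, edgeR adjusted p = 0.00697). In all 3 genes every cross library was below every self library, and replicate 1 of 1DOA x 1DOA was the lowest.

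The saposin-like gene spp-23 had 28.4, 13, 17.3 and 21.8 CPM in 1DOA x 1DOA and 64.1, 64.8, 37.1 and 47.3 CPM in WT F1-1DOA (log2 fold change -1.40, standard error 0.23, edgeR adjusted p = 0.000488), again without overlap. Of its family 16 of 17 were below 0, with a median of -0.30, whereas 5 of 9 lys genes were above 0. The median over all 28 was -0.27, beside -0.01 over all genes, of which 49.2% were above 0. The neighbour of spp-23, spp-17, was at 408 ± 80.3 CPM in 1DOA x 1DOA and 653 ± 102 CPM in WT F1-1DOA (SD, n = 4 each). Its log2 fold change of -0.68 did not pass (edgeR adjusted p = 0.0616). Without 1DOA x 1DOA replicate 1, lys-4 at -0.96 and lys-6 at -0.93 were under the fold threshold and 2 members stayed called, and in the libraries of high coelomocyte marker level alone only lys-4 was (-1.02, adjusted p = 0.0444). With the 8 libraries compared fitted alone, lys-5 at -1.42 and lys-6 at -1.19 were not called (adjusted p = 0.0509 and 0.0658), while lys-3 was, higher in 1DOA x 1DOA, beside lys-4 and spp-23. Mating, the transgene and any difference in sex between these groups cannot be told apart. Of the other immune effectors 5 of 25 rose in 1DOA x 1DOA and none fell, and of 9 intestine markers ifc-2 rose (log2 fold change 3.96, standard error 0.66, edgeR adjusted p = 0.000526). The 7 adult-onset genes were all above 0 with 0 called (median 1.18). Their summed level was 5217 to 13052 CPM in 1DOA x 1DOA and 1913 to 6977 CPM in WT F1-1DOA. The 4 libraries of 1DOA x 1DOA are all of high coelomocyte marker level, unlike those of WT F1-1DOA. The part of either in the members' values was not tested.

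In the outcross lines no member was called between either group of descendants and WT-ctrl. In MUT-des 0 of 27 members were called by edgeR, 5 with an unadjusted p under 0.05 and 0 called by DESeq2, beside 0.176% of all genes, with a median of -0.09 against 0.01 over all genes. In WT-des 0 of 27 were called by edgeR, 3 with an unadjusted p under 0.05 and 0 called by DESeq2, beside 0.0126% of all genes, with a median of -0.11 against -0.00. lys-2 illustrates the spread within these groups. At F3 it had 225, 138 and 281 CPM in MUT-des, 95.1, 148, 138 and 107 CPM in WT-des and 121, 159, 136 and 116 CPM in WT-ctrl, with the MUT-des libraries high in 2 of 3 lines. At F5 the 3 groups overlapped, with 127, 107 and 114 CPM in MUT-des, 63.3, 175, 85.9 and 86.9 CPM in WT-des and 136, 77.5 and 108 CPM in WT-ctrl. Over both generations the log2 fold change of lys-2 was 0.40 in MUT-des (standard error 0.21, edgeR adjusted p = 0.76) and -0.09 in WT-des (0.19, adjusted p = 0.993).

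Between generations 7 saposin-like genes and lys-7 were higher at F5 than at F3, by less than the fold threshold. No member was called with the fold threshold (edgeR, 15 of 27 with an unadjusted p under 0.05, and 0 called by DESeq2), where 2.11% of all genes were. At any fold 8 of 27 members had an adjusted p under 0.05, all higher at F5, against 3.76% of all genes higher by the same rule. They were spp-2, spp-3, spp-17, spp-1, spp-5, spp-4, spp-18 and lys-7. The median over the 27 was 0.36, beside 0.01 over all genes. Of the saposin-like genes 16 of 17 were above 0, where 50.9% of all genes were.

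spp-2 had 37.2, 58.9 and 41.6 CPM in MUT-des F5 and 25.1, 24.6 and 19.3 CPM in MUT-des F3. In WT-des it had 55.4, 59.1, 45.1 and 44.7 CPM at F5 and 42.6, 30.1, 39.5 and 27.2 CPM at F3, and in WT-ctrl 40.8, 59 and 74.3 CPM at F5 and 33.1, 32.2, 36.6 and 32.9 CPM at F3. Within each type of line every F5 library was above every F3 library, though not across types (log2 fold change 0.78, standard error 0.12, edgeR adjusted p = 0.00168). The neighbouring spp-3 had 253, 226 and 232 CPM in MUT-des F5 and 149, 139 and 150.2 CPM in MUT-des F3. In WT-des spp-3 stood at 227, 408, 223 and 268 CPM at F5 and 185, 202, 222 and 169.8 CPM at F3, and in WT-ctrl at 237, 234.7 and 362 CPM at F5 and 202, 230.00, 234 and 177 CPM at F3. Each F5 library exceeded each F3 library of its own type of line, by a narrow margin in WT-des and WT-ctrl (log2 fold change 0.54, standard error 0.11, edgeR adjusted p = 0.00679).

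lys-7 showed a larger fold with a larger error (log2 fold change 0.83, standard error 0.20, edgeR adjusted p = 0.0179). It had 49.6, 69.6 and 37 CPM in MUT-des F5 and 35.2, 60.1 and 25 CPM in MUT-des F3, where the generations overlapped. In WT-des it had 30.9, 45.2, 45.4 and 68.5 CPM at F5 and 20.2, 21.6, 40.9 and 30.8 CPM at F3, again with overlap. In WT-ctrl it had 44.5, 82.9 and 115 CPM at F5 and 24, 33.3, 27.8 and 41 CPM at F3, without overlap. The remaining log2 fold changes were 0.46 for spp-17, 0.51 for spp-1, 0.48 for spp-5, 0.57 for spp-4 and 0.48 for spp-18, with standard errors between 0.11 and 0.14 and edgeR adjusted p between 0.0138 and 0.0177. The mean at F5 was above the mean at F3 in all 3 types of line for 20 of the 27 members and in none for 1, lys-2.

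Leaving out MUT-des F3 replicate 3 lowered the count at any fold to 5, with spp-4, spp-18 and lys-7 lost. In the same libraries 4 of 25 other immune effectors fell at F5, and the 7 adult-onset genes were all below 0 (median -1.35, 1 called), while none of 8 intestine markers was called. F3 and F5 are generations of lines sampled apart in time, so generation and time of sampling cannot be told apart.

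**Figure D5:**
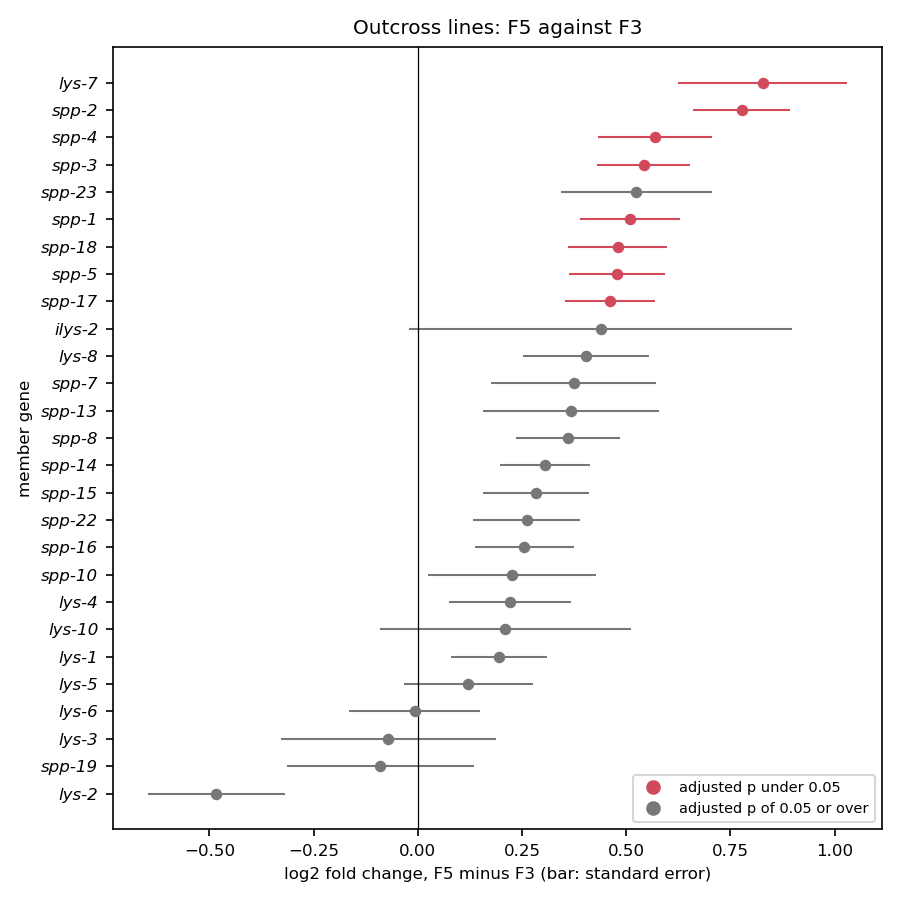
Log2 fold change, F5 minus F3, of the 27 members tested in the outcross lines, in order of size, with bars of 1 standard error. The 8 members with an adjusted p under 0.05 (red) run between 0.46 for spp-17 and 0.83 for lys-7, and lys-2 lies lowest at -0.48.

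Genes close to the families in function were followed as well. Of 18 lysosome genes tested between 0 and 2 were called in each comparison, among them asah-1, an acid ceramidase, which rose in WT F1-25C (log2 fold change 1.20, standard error 0.38, edgeR adjusted p = 0.046) and fell in WT F1-back against WT F1-25C (log2 fold change -1.49, standard error 0.38, edgeR adjusted p = 0.00709). Of 11 intestinal protease genes tested 0 to 2 were called in each comparison, such as cpr-5, a cathepsin B gene, lower in 1DOA x 1DOA than in WT F1-1DOA (log2 fold change -1.07, standard error 0.28, edgeR adjusted p = 0.0257). Of the immune signalling and transcription factor genes listed, 18 tested in the 36 libraries and 19 in the outcross libraries, skn-1 rose in set-2 F1-4DOA against set-2 F1-1DOA (log2 fold change 1.16, standard error 0.43, edgeR adjusted p = 0.049) and pqm-1 rose in 1DOA x 1DOA against WT F1-1DOA (log2 fold change 1.20, standard error 0.33, edgeR adjusted p = 0.0359), and no other was called in any comparison.

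Across the 9 groups of the 36 libraries, each member had its own order of levels. spp-18 averaged 103.6 ± 22.9 CPM in set-2 F1-25C, 84.3 ± 6.33 CPM in WT F1-25C, 64.9 ± 21.3 CPM in set-2 F1-1DOA, 36.8 ± 3.42 CPM in WT F1-1DOA and 25 ± 6.5 CPM in WT F1-back (SD, n = 4 each). In this order WT F1-1DOA was apart from set-2 F1-1DOA and from WT F1-back, and the other neighbours overlapped. The other 4 groups had spp-18 means between 26.4 and 30.8 CPM, which their spread did not separate. For lys-4 the order of these groups and 1DOA x 1DOA was 1447 ± 87.9 CPM in set-2 F1-1DOA, 1126 ± 69.9 CPM in WT F1-1DOA, 968 ± 101 CPM in WT F1-back, 719 ± 194 CPM in set-2 F1-25C, 569 ± 60.3 CPM in WT F1-25C and 528 ± 139 CPM in 1DOA x 1DOA (SD, n = 4 each). In this order set-2 F1-1DOA was apart from WT F1-1DOA, while WT F1-1DOA overlapped with WT F1-back and WT F1-back with set-2 F1-25C, and set-2 F1-25C, WT F1-25C and 1DOA x 1DOA overlapped with each other. Among lys-1, lys-2, lys-4, lys-7 and lys-8, lys-8, a target of DBL-1 signalling, varied least between groups and was called in no comparison, with group means between 337 and 528 CPM.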

How the data were processed

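Whole L4 animals were sequenced as poly(A) RNA with an unstranded kit. According to the authors' methods and processing notes, reads were trimmed with Trimmomatic, aligned with STAR to WS220 (ce10) and assigned to genes with htseq-count, and the deposited values are raw counts per gene in 45410 entries per library. How overlapping genes were counted is not stated. Tests were run with edgeR 4.0.16 under R 4.3.3 (filterByExpr, TMM factors, robust quasi-likelihood fit), with 1 fit of 36 libraries in 9 groups (15306 genes) and 1 of 21 outcross libraries (15872 genes). Levels are CPM on TMM-scaled library sizes, except those of the coelomocyte markers, which with their split are on total counts. A standard error is the absolute log2 fold change over the square root of F. Adjusted p were taken over all genes tested.

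The members were every entry named lys, ilys or spp with a number, and they and the other lists (intestine, coelomocyte, sperm and other cell type markers, adult-onset, other immune effector, immune signalling, protease and lysosome genes) were chosen with earlier results of these data known. Given in full were the called members of each comparison (at most 8 by adjusted p), the 3 most abundant of each family and, of other lists, up to 3 called genes; further genes outside this rule, such as lys-7 in WT F1-25C, were picked after their values were seen. Lengths are from the WBcel235 annotation of Ensembl, and chromosomes and neighbours are from the RefSeq annotation. The alternatives were DESeq2 1.42.0, RLE factors, no filter, only the groups compared, the replicate number as a block, all 22 outcross libraries, leaving out each library, and 3 fits on the coelomocyte split, which were chosen after seeing the data. Library depth limits the scarce members, and no sequences are printed here.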

Additional observations from a re-analysis of the deposited data

Results flagged for a closer look

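Among 180 groups of 4 libraries tested over 17 members with at least 10 counts in a library, 12 held a library far from the other 3 by Dixon's criterion, where chance gives about 5 in 100. No member moved in opposite directions, without overlap, in 2 settings of the same contrast.

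Of the 12, 3 were in set-2 F1-25C replicate 4, which had 205 CPM of spp-2 (53.3 to 67.3 in the others), 138 CPM of spp-18 (90.5 to 95.1) and 3.55 CPM of ilys-3 (0.432 to 0.852). In 1DOA x 1DOA, replicate 1 had 150.3 CPM of lys-7 (63.3 to 78.1 in the others) and 55.6 CPM of spp-2 (40.6 to 42.7). In WT-des F5, replicate 2 had 1133 CPM of spp-5 (561 to 633) and 852 CPM of spp-17 (516 to 566), and in WT-des F3, replicate 4 had 608 CPM of spp-14 (691 to 704).

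The other single libraries were WT F1-4DOA replicate 1, with 66.3 CPM of spp-23 (39.0 to 41.0), WT F1-1DOA replicate 1, with 31.8 CPM of spp-18 (38.1 to 39.2), set-2 F1-4DOA replicate 3, the shallowest of the 36 libraries, with 625 CPM of spp-14 (505 to 521), and 1DOA x 4DOA replicate 1, with 4.15 CPM of lys-6 (3.05 to 3.18).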

How the results depend on the processing

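The 48 named fold changes kept their direction in all 823 alternative fits run on them, and in 761 their side of the threshold as well, while 51 lost it and 11 gained it. The counts of called members moved as follows, given without the share of all genes called in each fit, and the causes were not tested. Fitted with only the groups compared, the count was 3 for set-2 F1-4DOA against set-2 F1-1DOA (7 in the full fit), 0 for set-2 F1-25C against set-2 F1-1DOA (3) and 0 for set-2 F1-1DOA against WT F1-1DOA (2), each with fewer libraries to estimate the spread. DESeq2 called 1 member in the interaction of maternal age with set-2 (0 by edgeR). With the coelomocyte split as a term, 1 member was called in that interaction and 2 in WT F1-back against WT F1-25C (4). In the libraries of high marker level alone, the counts were 1 in WT F1-25C against WT F1-1DOA (4), 2 in WT F1-back against WT F1-25C (4), 0 in set-2 F1-1DOA against WT F1-1DOA (2) and 1 in 1DOA x 1DOA against WT F1-1DOA (4), and in those of low marker level 7 in WT F1-25C against WT F1-1DOA. For that interaction no count is given at high marker level, as WT F1-4DOA keeps only replicate 4 there. Leaving out 1 library at a time gave 3 to 8 members called for maternal age in set-2, 0 to 1 for its interaction with set-2, 0 to 1 for that with crossing, 2 to 6 for 25°C in set-2, 3 to 5 for 25°C in wild type, 3 to 4 for WT F1-back against WT F1-25C, 1 to 4 for set-2 F1-1DOA against WT F1-1DOA, 2 to 4 for 1DOA x 1DOA against WT F1-1DOA, and 5 to 12 at any fold between F5 and F3. Replicate numbers did not pair the libraries (43 of 144 same-numbered pairs correlated above 0.1 in the 36 libraries, with a mean of -0.00573, and 20 of 46 in the outcross libraries), and with the replicate number as a block the counts were unchanged except for 9 members at any fold between F5 and F3 (8 without). The counts of members with the RLE factors were those of the full fit.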
